A study of Mus musculus with 39 samples.

Results

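RNAs that code for enzymes and regulators of glycolysis, gluconeogenesis, glycogen metabolism and the pentose phosphate pathway were followed through 2 sucrose gradients of mouse liver. The set held 36 RNAs, chosen by gene symbol, of the 13230 genes that were present in the tables of both gradients. All 36 were in both tables. The protein is cytosolic for 32 of them, belongs to the endoplasmic reticulum (ER) for 3 (G6pc, G6pc3 and H6pd), and is mitochondrial for 1 (Pck2).

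The liver keeps blood glucose steady by storing glucose as glycogen after a meal and by releasing it during fasting. Nearly all of the enzymes that do this are soluble proteins of the cytosol, whose mRNAs are translated by free ribosomes. The last step of glucose release is different: glucose-6-phosphatase is a protein that spans the ER membrane many times, and it works together with a transporter that brings glucose-6-phosphate into the ER. An mRNA whose protein enters the ER is usually translated by ribosomes bound to that membrane, so the RNAs of a single metabolic pathway may be carried by different structures of the same cell.

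Liver came from wild-type FVB female mice, with no treatment, and was homogenized with beads and without detergent, so that membranes were kept. After nuclei had been spun out, the homogenate was resolved on a gradient of 10-50% sucrose and RNA of each fraction was sequenced after removal of ribosomal RNA. Gradient 1 gave 17 libraries (fractions 4 to 19 and 21) and gradient 2 gave 22 (fractions 3 to 24). Low fraction numbers are light and high numbers are dense, a fraction has 1 library in each gradient, and the 2 gradients, each loaded with its own homogenate, are the only replicates. How many animals went into a homogenate is not given in the sources used here, and ages are not given either.

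Values are TPM, a measure of abundance that divides out the length of each transcript and is scaled to a fixed total, which was 998099 to 999202 in these libraries. TPM is therefore the share of an RNA in the RNA of its fraction, and a high TPM in a fraction says nothing about how much RNA that fraction held. Depth cannot be read from TPM, so no counting interval is given and errors come from the spread between the 2 gradients alone. Hepatocyte markers were abundant (10 of 10 in both tables, Alb at a mean of 9461 TPM). Other liver cells were present too: 8 of 8 Kupffer cell, 7 of 8 endothelial and 6 of 8 stellate cell markers averaged at least 1 TPM over all libraries. So did 4 of 7 cholangiocyte and 3 of 7 erythroid markers (Hba-a1 at 212.5 TPM), but only 1 of 8 muscle and 0 of 7 lymphocyte markers. In bulk fractions, RNA from fewer cells of a type and less RNA per cell cannot be told apart.

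The coding sequences of the glucose-6-phosphatases G6pc and G6pc3 hold several stretches of codons for hydrophobic residues. For each mRNA the stretch of 19 codons with the highest mean hydropathy (Kyte-Doolittle scale) was located. It is printed here 5′ to 3′ for the 3 ER enzymes, for the glycogen regulator Ppp1r3b, whose RNA sedimented with theirs, and for a pair of cytosolic enzymes. Capitals mark the second base of each codon, where T stands for a hydrophobic residue in every codon of the genetic code. All lie inside a single coding exon of the GENCODE M21 transcript on GRCm38, which is the same assembly as mm10.
G6pc, codons 209 to 227, chr11:101376350-101376406, plus strand: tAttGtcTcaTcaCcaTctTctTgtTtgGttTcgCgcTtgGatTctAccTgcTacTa
G6pc3, codons 284 to 302, chr11:102193615-102193671, plus strand: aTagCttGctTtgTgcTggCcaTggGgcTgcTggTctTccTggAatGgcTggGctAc
H6pd, codons 1 to 19, chr4:149996306-149996362, minus strand: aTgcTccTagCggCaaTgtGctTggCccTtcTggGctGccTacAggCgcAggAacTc
Ppp1r3b, codons 143 to 161, chr8:35384435-35384491, plus strand: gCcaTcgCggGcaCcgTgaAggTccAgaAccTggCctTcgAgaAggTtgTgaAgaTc
Pck1, codons 166 to 184, chr2:173154790-173154846, plus strand: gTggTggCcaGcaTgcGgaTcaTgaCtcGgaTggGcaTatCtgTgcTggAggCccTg
Gapdh, codons 144 to 162, chr6:125162876-125162932, minus strand: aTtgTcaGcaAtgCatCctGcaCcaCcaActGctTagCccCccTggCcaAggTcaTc

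The printed stretch has T at the second codon base in 12 of 19 codons of G6pc, 11 of G6pc3, 9 of H6pd, 8 of Ppp1r3b, 10 of Pck1 and 6 of Gapdh. Its mean hydropathy was 2.27 in G6pc, 2.05 in G6pc3 and 1.67 in H6pd, against 0.763 in Ppp1r3b, 1.23 in Pck1 and 1.05 in Gapdh. Windows at or over a hydropathy of 1.6, counted without overlap, numbered 5 in G6pc and 5 in G6pc3, 2 in Gpd1, and at most 1 in every other of the 36. The single window of H6pd is its first 19 codons, where a signal peptide would lie. A window is a property of the sequence and no proof of a membrane segment: 10 cytosolic members held at least 1, among them Ldha with a window as hydrophobic (2.27) as that of G6pc. Those of Pklr (1.88), Gckr (1.8) and Taldo1 (1.71) were also above that of H6pd. Pck1 and Gapdh, printed here for comparison, hold none.

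The RNA of each ER enzyme peaked between fractions 5 and 7, and the RNA of most cytosolic enzymes rose towards the bottom of the gradient. G6pc, which codes for the glucose-6-phosphatase of liver (chr11:101367716-101377903), ranged from 10.5 TPM in fraction 18 to 199.5 TPM in fraction 5 of gradient 1, with a median of 20.7. In gradient 2 it ranged from 9.49 TPM in fraction 15 to 90.6 TPM in fraction 5, with a median of 18.5. Its peak was at fraction 5 in both gradients and stood 3.94 and 3.36 times above the mean of the fractions. In the light zone, fractions 4, 5, 6 and 7, its TPM was 172.0, 199.5, 102.2 and 71.1 in gradient 1 and 72.9, 90.6, 54.5 and 29.3 in gradient 2. In the dense zone, fractions 16, 17, 18 and 19, it was 20.1, 16.2, 10.5 and 14.6 in gradient 1 and 11.5, 11.6, 14.5 and 18.4 in gradient 2. Every light library was above every dense library of its gradient. A middle zone was taken as fractions 10 to 13. Averaged by zone, G6pc went from 136.2 to 24.8 and 15.3 TPM in gradient 1 and from 61.8 to 15.6 and 14.0 TPM in gradient 2. The light zone held 8.88 and 4.41 times the TPM of the dense zone.

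**Figure D1:**
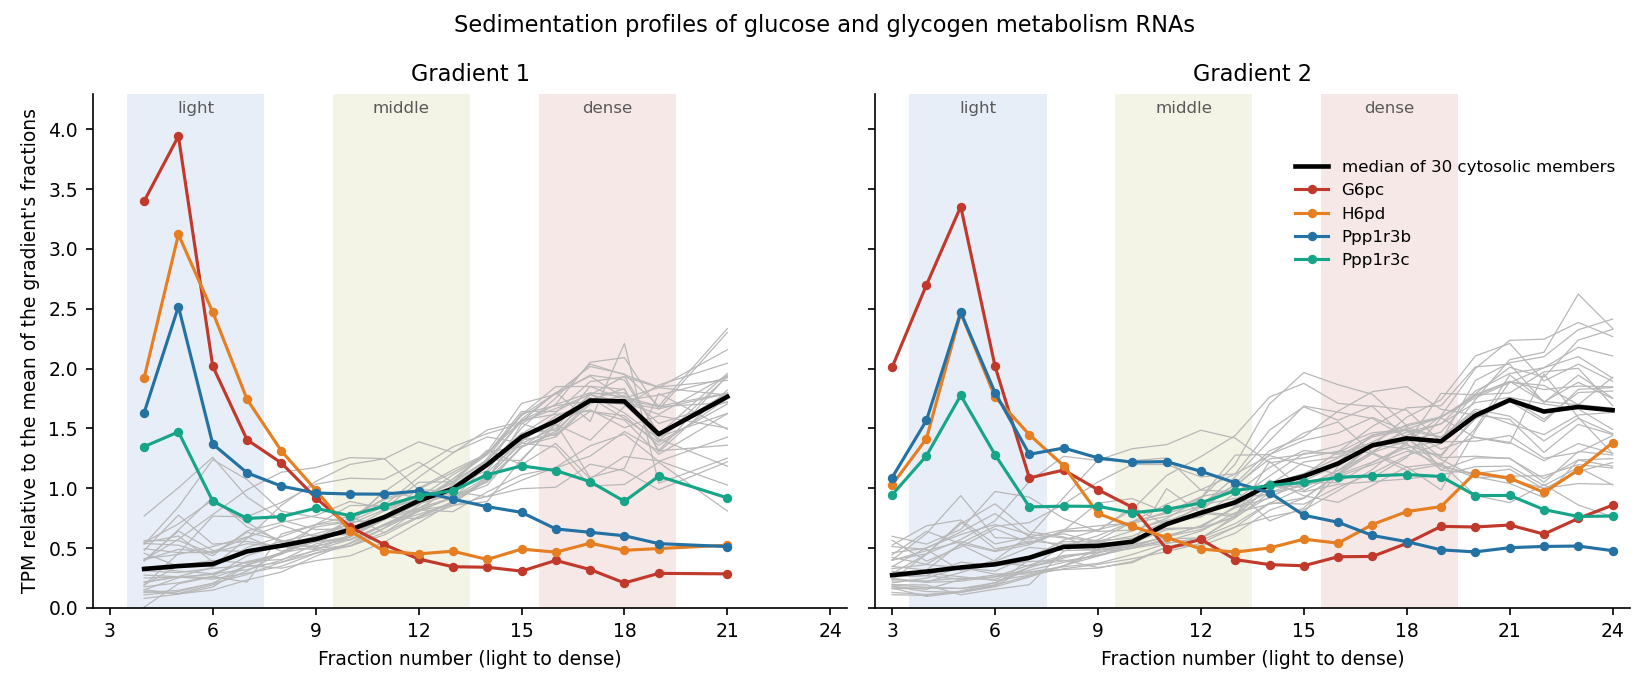
TPM of each RNA relative to its own mean in that gradient, against fraction number, in gradient 1 (left) and gradient 2 (right). Grey lines are 30 cytosolic members and the black line is their median. Colored lines are G6pc, H6pd, Ppp1r3b and Ppp1r3c, and shading marks the 3 zones. G6pc, H6pd and Ppp1r3b peak at fraction 5 in both gradients, whereas the median of the 30 rises from light to dense. G6pc3, at about 1 TPM, is not drawn.

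H6pd, the glucose-6-phosphate dehydrogenase of the ER lumen, followed a like course. It ranged from 22.9 to 176.7 TPM in gradient 1 (median 29.6) and from 26.2 to 138.8 TPM in gradient 2 (median 51.0), and was highest at fraction 5 in both. Both RNAs were lowest before the end of either gradient. In gradient 2 both RNAs fell to a trough, at fraction 13 for H6pd and at fraction 15 for G6pc, and then rose again, to 1.38 times the mean at fraction 24 for H6pd and 0.858 times for G6pc. In gradient 1, which ends at fraction 21, H6pd was lowest at fraction 14 (0.404 times the mean) and G6pc at fraction 18 (0.208 times), and the last values were 0.524 and 0.284 times the mean. G6pc3, a glucose-6-phosphatase found in many tissues, was scarce, with at most 3.44 TPM in gradient 1 and 4.14 TPM in gradient 2. It was listed at 0 in 2 fractions of gradient 1, so its profile is the least certain of the 36.

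To compare the zones, log2(TPM + 1) was averaged over the 4 fractions of a zone within each gradient, and the 6 averages (n = 2 gradients per zone) were fitted with limma for all 11754 genes with a mean of at least 1 TPM. All 36 RNAs passed this filter. From the light to the dense zone, 30 of the 36 RNAs rose and 4 fell at an adjusted p under 0.05 (limma, Benjamini-Hochberg over all genes). Of all genes tested, 22.3% rose and 39.6% fell. Of the 32 cytosolic members 29 rose and 1 fell, with a median change of 1.68 on the log2 scale, while all 3 ER members fell and Pck2 rose. The median over all genes was −0.43. When the gradient entered as a block, so that zones were compared inside each homogenate, 31 rose and 4 fell, against 30.5% and 50% of all genes. These changes are relative to the rest of each fraction: under quantile normalization the median of all genes was −0.05, with 3587 genes higher and 3504 lower in place of 2616 and 4658, and of the 36 RNAs 30 rose and 3 fell.

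**Figure D2:**
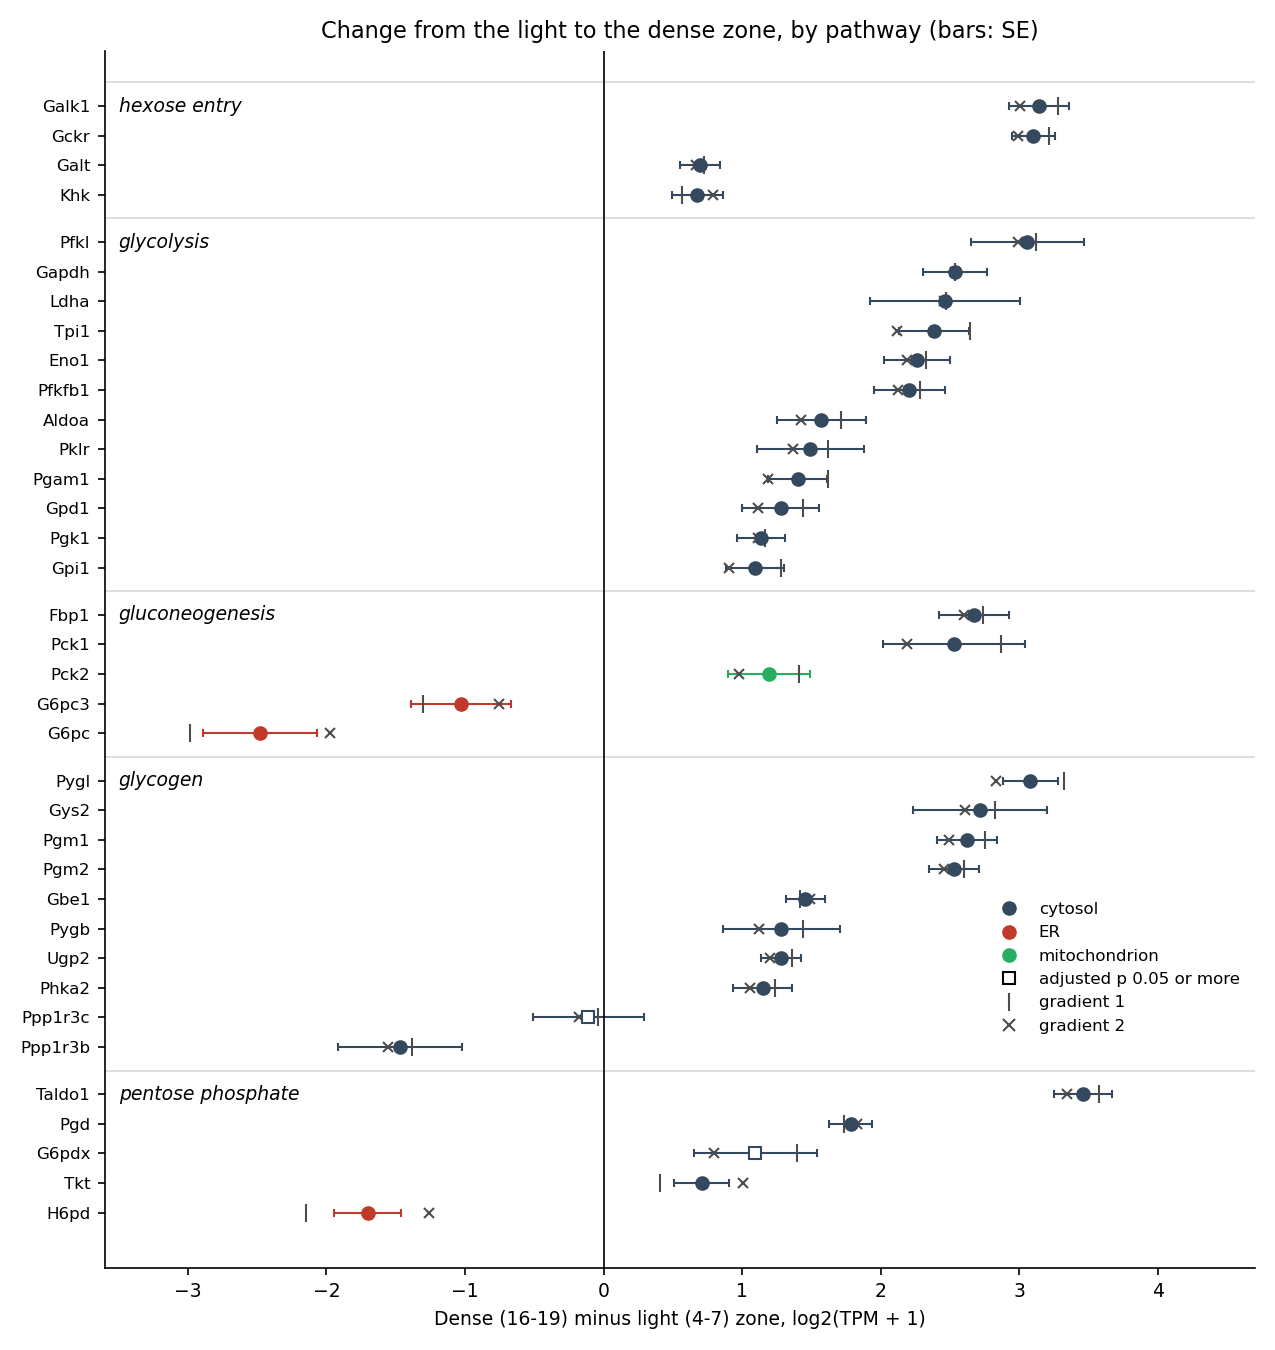
Dense zone minus light zone for each of the 36 RNAs on the log2(TPM + 1) scale, grouped by pathway. Filled circles passed the test at an adjusted p under 0.05 and open squares did not, bars are the standard error of the fit, and the ticks and crosses are gradients 1 and 2. The 3 ER members and Ppp1r3b lie left of 0 in both gradients, and all 12 RNAs of glycolysis lie right of it.

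Among the proteins that bring hexoses into the pathway, all 4 RNAs rose. Gckr, a regulatory protein of hexose phosphorylation, went from 34.7 to 151.0 and 298.0 TPM in gradient 1 and from 40.8 to 151.0 and 301.7 TPM in gradient 2, a rise of 3.10 (SE 0.16, adjusted p = 0.000301). Its highest light library was 69.7 TPM and its lowest dense library 267.4 TPM, both in gradient 2, so the zones did not overlap. Galk1, the kinase of galactose, rose by 3.14 (SE 0.22, adjusted p = 0.000323), from 24.0 to 209.2 TPM in gradient 1 and from 20.7 to 152.1 TPM in gradient 2. The rises of Khk, the kinase of fructose (0.68), and Galt, which exchanges uridylate between galactose and glucose (0.69), were the smallest of any cytosolic member that passed the test. Galt was highest at fractions 10 and 8 of the 2 gradients, so it did not increase to the bottom. Its call was lost with gradient 2 moved 1 fraction towards the bottom (adjusted p = 0.0899). That of Khk was lost with this move (adjusted p = 0.0529), with narrower zones (adjusted p = 0.0545), under quantile normalization (0.24, adjusted p = 0.286), without the light average of gradient 2 (adjusted p = 0.103) and without the dense average of gradient 1 (adjusted p = 0.082).

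In glycolysis, 12 of 12 RNAs rose, with a median change of 1.89 and a range from 1.09 (Gpi1) to 3.06 (Pfkl). Pfkl, the liver form of phosphofructokinase, which commits sugar to glycolysis, went from 13.3 to 65.2 and 116.9 TPM in gradient 1 and from 8.07 to 38.8 and 66.2 TPM in gradient 2. Its change was 3.06 (SE 0.41, adjusted p = 0.0016). Gapdh, which oxidizes glyceraldehyde-3-phosphate and was among the most abundant of the 36, went from 1017 to 2033 and 5929 TPM in gradient 1 and from 805.8 to 1699 and 4683 TPM in gradient 2. The 2 gradients gave 2.54 and 2.53 for its change (SE 0.23, adjusted p = 0.000537). The lowest library of Gapdh was fraction 5 in both gradients, which was the highest library of G6pc.

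Aldoa, an aldolase, rose less than Gapdh, by 1.57 (SE 0.32, adjusted p = 0.00753), with light and dense levels of 94.5 and 312.6 TPM in gradient 1 and 70.8 and 191.8 TPM in gradient 2. Between these came Tpi1 (2.38), Ldha (2.46), Eno1 (2.26) and Pfkfb1 (2.21), which code for triosephosphate isomerase, lactate dehydrogenase, enolase and the enzyme that makes and removes fructose-2,6-bisphosphate. The RNAs of the liver pyruvate kinase Pklr (1.49), phosphoglycerate mutase Pgam1 (1.40), the glycerol-3-phosphate dehydrogenase Gpd1 (1.28), phosphoglycerate kinase Pgk1 (1.14) and glucose-phosphate isomerase Gpi1 (1.09) rose by less. Without the light average of gradient 2, Aldoa, Pklr, Ldha and Gpd1 no longer passed, with changes of 1.37, 1.21, 1.97 and 1.13. Pklr was also lost without the dense average of gradient 1 (1.08). Within the gradients Ldha changed by 2.47 and 2.46, and each of these RNAs passed with the gradient as a block (limma, adjusted p of 0.000426 or less). Processed pseudogenes are known for Gapdh, Ldha, Pgam1, Aldoa and Pgk1, and Eno1 shares nearly all of its sequence with Eno1b, so the division of reads among such copies is uncertain.

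In gluconeogenesis cytosolic and ER members changed in opposite directions. Pck1, the cytosolic enzyme that turns oxaloacetate into phosphoenolpyruvate, went from 490.6 to 1430 and 3593 TPM in gradient 1 and from 1222 to 2434 and 5564 TPM in gradient 2, a change of 2.53 (SE 0.51, adjusted p = 0.00726). Its highest library, fraction 24 of gradient 2, reached 9757 TPM. Fbp1, fructose-1,6-bisphosphatase, went from 489.2 to 1544 and 3085 TPM in gradient 1 and from 404.0 to 1076 and 2416 TPM in gradient 2, a change of 2.67 (SE 0.25, adjusted p = 0.000608). G6pc, whose enzyme makes free glucose in the last step of the pathway, fell by 2.48 (SE 0.41, adjusted p = 0.00344), with values of −2.99 and −1.98 in the 2 gradients. G6pc3 fell by 1.03 (SE 0.36, adjusted p = 0.0499), from 1.87 to 0.111 TPM in gradient 1 and from 2.76 to 1.21 TPM in gradient 2. This call lay at the threshold. It was lost under quantile normalization (−0.36, adjusted p = 0.448), with a pseudocount of 0.1 (−2.24, adjusted p = 0.0821), with narrower or wider zones (adjusted p = 0.0765 and 0.0737), after rescaling without the 50 most abundant genes (−1.20, adjusted p = 0.0596), with gradient 2 moved towards the bottom (−0.998, adjusted p = 0.0546), and without any of the zone averages other than the dense one of gradient 2, the smallest change being −0.54 (adjusted p = 0.19) without the dense average of gradient 1. The falls of G6pc and H6pd passed under every alternative run.

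**Figure D3:**
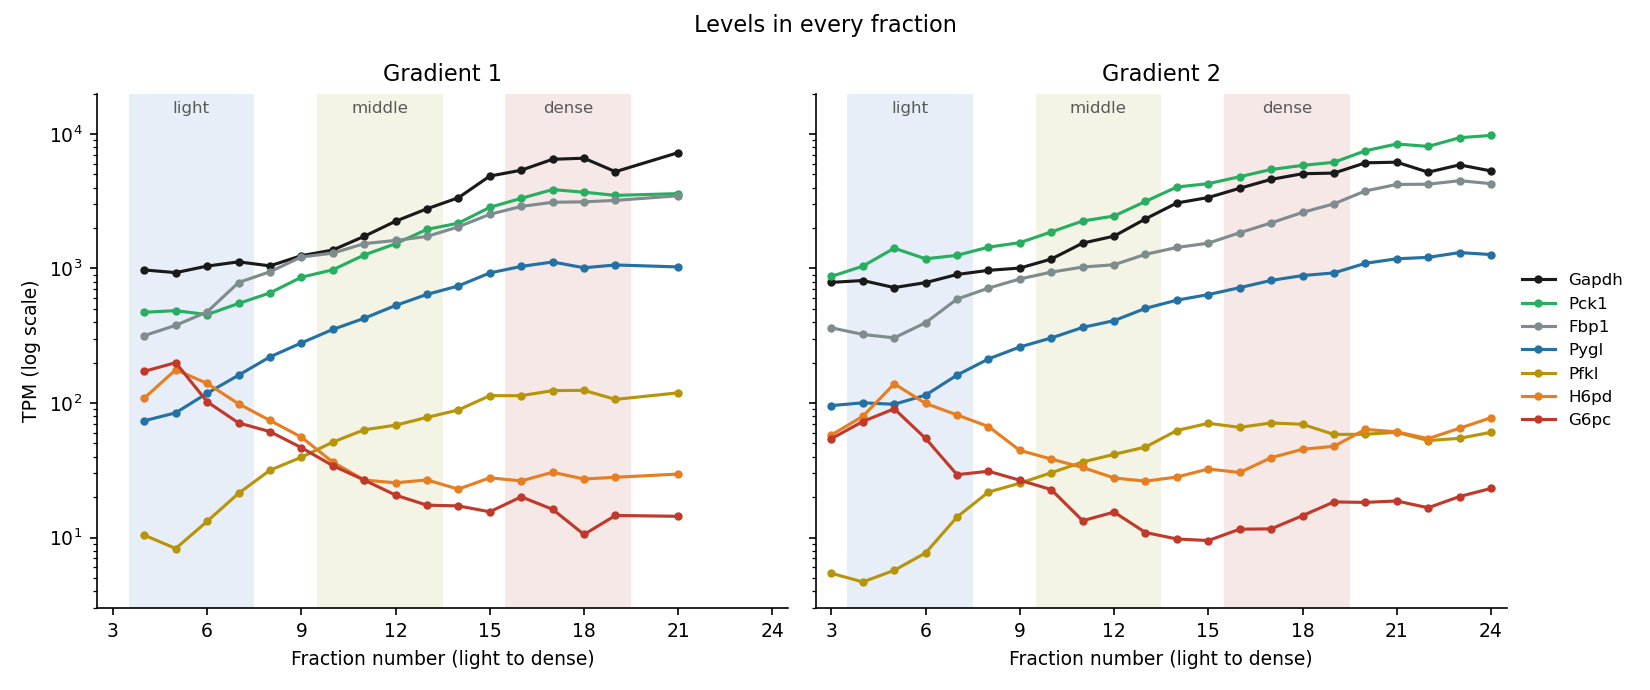
TPM on a log scale against fraction number for 7 of the RNAs in gradient 1 (left) and gradient 2 (right), with the 3 zones shaded. Gapdh, Pck1, Fbp1, Pygl and Pfkl rise towards dense fractions, while H6pd and G6pc fall from fraction 5 and rise again after a trough, further in gradient 2.

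The fall of G6pc was then set against the change of each other member in the same fit, by subtracting the log2(TPM + 1) of G6pc from that of every gene. The error of G6pc is shared by all of these differences, and the moderation of limma, which borrows spread across genes, then gave p-values that were too small, so the values quoted are without moderation (a choice made after the data were seen). Of 35 members, 32 changed more towards the dense zone than G6pc, against 50.8% of all genes, and 0.102% of all genes changed less. The differences of these 32 ran from 2.37 (Ppp1r3c) to 5.94 (Taldo1), and adjusted p ran from 0.027 to 0.0487. For Pck1 the difference was 5.01 (SE 1.19, adjusted p = 0.0487, and 0.0587, not called, when adjusted among the differences from Pck1) and for Fbp1 5.15 (SE 0.38, adjusted p = 0.027). The 3 not called were H6pd (0.78, SE 0.50, adjusted p = 0.265), G6pc3 (1.45, SE 0.86, adjusted p = 0.237) and Ppp1r3b (1.01, SE 0.38, adjusted p = 0.113). With the moderation 33 were called, against 72% and 0.476% of all genes higher and lower. Without moderation and with the gradient as a block, 0 of 35 were called, 34 having an unadjusted p under 0.05, and the lowest adjusted p was 0.0544, and 0% of all genes were called in either direction.

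Pck2, the mitochondrial form of the Pck1 enzyme, was scarce in this liver but sedimented with the cytosolic members. Its RNA went from 1.48 to 2.43 and 5.49 TPM in gradient 1 and from 0.987 to 1.87 and 2.93 TPM in gradient 2, a change of 1.20 (SE 0.30, adjusted p = 0.0153). The change was 1.33 smaller than that of Pck1 (limma without moderation, SE 0.95, adjusted p = 0.296), and with the gradient as a block this difference passed the test (adjusted p = 0.0267). With moderation it had an adjusted p of 0.17, and without the light average of gradient 2 the difference was −2.13 (adjusted p = 0.0208). On the log2(TPM + 1) scale a change at such low levels is understated. The rise of Pck2 itself was not called without the light average of gradient 1 (adjusted p = 0.0522) or gradient 2 (adjusted p = 0.0884) or the dense average of gradient 1 (0.84, adjusted p = 0.0544). Of the 35 members set against Pck1 without moderation, 0 were higher and 2 lower (G6pc3 and H6pd), where 0.00851% of all genes were higher and 33% lower. With the gradient as a block and no moderation, 18 were lower, G6pc among them (adjusted p = 0.0213), and 2 were higher, Taldo1 by 0.93 (adjusted p = 0.0391) and Pygl by 0.55 (adjusted p = 0.0217), against 88.8% of all genes lower and 0.706% higher. With moderation 8 were lower, against 0.017% and 75.1% of all genes.

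Of the glycogen enzymes and regulators, 8 rose, 1 fell and 1 did not pass. Pygl, the liver phosphorylase that releases glucose units from glycogen, went from 109.4 to 487.8 and 1057 TPM in gradient 1 and from 118.5 to 396.0 and 837.3 TPM in gradient 2, a change of 3.08 (SE 0.20, adjusted p = 0.000305). Gys2, the liver glycogen synthase that opposes it, went from 24.9 to 82.5 and 176.5 TPM and from 52.3 to 145.6 and 316.6 TPM, a change of 2.71 (SE 0.48, adjusted p = 0.00451). Gys2, of glycogen storage, and Pygl, of glycogen breakdown, were thus both lowest in the light zone. Pygb, the brain form of phosphorylase, was present at a mean of 6.70 and 4.18 TPM and rose by 1.28. This call was lost without either light average (adjusted p = 0.0848 and 0.207) and without the dense average of gradient 1 (adjusted p = 0.158), and with wider zones (adjusted p = 0.0557).

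The other 5 that rose were the phosphoglucomutases listed as Pgm1 (2.62) and Pgm2 (2.53), Gbe1 (1.46), which makes the branches of glycogen, Ugp2 (1.28), which makes UDP-glucose, and Phka2 (1.15), a subunit of the kinase that activates phosphorylase. The symbols Pgm1 and Pgm2 have been exchanged between annotation releases, and which gene each row holds was not settled. Gbe1 and Phka2 reached their level by the middle zone. Gbe1 changed by 1.62 from light to middle and by −0.16 from middle to dense, and was highest at fractions 14 and 12 of the 2 gradients.

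The exceptions among cytosolic proteins were Ppp1r3b and Ppp1r3c, subunits that bring protein phosphatase 1 to glycogen. Ppp1r3b ranged from 116.3 TPM in fraction 21 to 571.9 TPM in fraction 5 of gradient 1 (median 215.8) and from 54.7 TPM in fraction 20 to 288.9 TPM in fraction 5 of gradient 2 (median 117.5). Its zone averages fell from 377.4 to 215.0 and 138.0 TPM and from 208.2 to 135.3 and 68.9 TPM, a change of −1.47 (SE 0.45, adjusted p = 0.0316). This change was not called without the light average of gradient 1 (−1.05) or of gradient 2 (−1.88), or without the dense average of gradient 2 (−0.97). Within the gradients Ppp1r3b changed by −1.38 and −1.55, and it passed with the gradient as a block (limma, adjusted p = 0.000236). Between the middle and dense zones it changed by −0.81 (adjusted p = 0.246, and 0.00364 with the gradient as a block). Ppp1r3c changed by −0.11 (SE 0.40, adjusted p = 0.828), from 94.0 to 88.5 TPM in gradient 1 and from 61.1 to 52.1 TPM in gradient 2. It also was highest at fraction 5 in both gradients, with a further rise around fractions 15 to 19.

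In the pentose phosphate pathway 3 of 4 cytosolic members rose and the ER member, H6pd, fell. Taldo1, transaldolase, had the largest change of the 36, 3.46 (SE 0.21, adjusted p = 0.000301), from 56.3 to 661.7 TPM in gradient 1 and from 49.8 to 496.4 TPM in gradient 2. Pgd (1.78), which makes ribulose-5-phosphate, and the transketolase Tkt (0.71) also rose, although Tkt was not called without either light average (adjusted p = 0.0516 and 0.122) or the dense average of gradient 2 (adjusted p = 0.0844). G6pdx, the cytosolic glucose-6-phosphate dehydrogenase, changed by 1.10 (SE 0.45, adjusted p = 0.0759) and passed with the gradient as a block (adjusted p = 0.00392), under quantile normalization (1.63, adjusted p = 0.0123), with gradient 2 moved towards the bottom (adjusted p = 0.0399) and without the dense average of gradient 2 (1.68, adjusted p = 0.0139). Its levels were low, 5.48 and 16.1 TPM in the light and dense zones of gradient 1 and 3.42 and 6.62 TPM in gradient 2. H6pd, which catalyses the same first step inside the ER, fell by 1.70 (SE 0.24, adjusted p = 0.0019), from 131.0 to 28.0 TPM in gradient 1 and from 99.8 to 40.6 TPM in gradient 2. The difference between G6pdx and H6pd was not tested itself.

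Each step between zones was also tested. From the light to the middle zone 18 RNAs rose and 2 fell (G6pc by 2.10 and H6pd by 1.87), against 23.5% and 24.1% of all genes. With the gradient as a block 25 rose and 5 fell, against 37.2% and 35%, and without the light average of gradient 1 the count of 20 called became 13. From the middle to the dense zone 16 rose and 0 fell, while 4.79% of all genes rose and 22.5% fell. With the block, 28 rose and 1 fell (Ppp1r3b), against 14.1% and 39.3% of all genes. The count of 16 depended on single zone averages: without the middle zone of either gradient it was 0 (limma, with 19 or 14 members at an unadjusted p under 0.05), without a light average or the dense average of gradient 1 it was 8, and without the dense average of gradient 2 it was 13.

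The values also give where along the gradient each rise took place, although differences between RNAs were not tested. Gpi1, Pgk1, Khk and Tkt changed by no more than 0.113 in size from the light to the middle zone and did not pass that test. For Tkt the 2 gradients gave −0.37 and 0.14. These 4 RNAs then rose from the middle to the dense zone, Pgk1 by 1.17 (adjusted p = 0.00841) and Gpi1 by 1.02 (adjusted p = 0.0194). All 4 of these second steps lost the call without either middle average. Those of Khk and Tkt lost it also with gradient 2 moved 1 fraction towards the top (adjusted p = 0.0571 and 0.0518) or the bottom (adjusted p = 0.095 and 0.0788) and without the dense average of gradient 2 (adjusted p = 0.0709 and 0.0997). Khk and Gpi1 lost it without the dense average of gradient 1 (adjusted p = 0.103 and 0.0551), and Tkt and Gpi1 without either light average, with adjusted p from 0.0562 to 0.0618. Under quantile normalization Khk fell by 0.55 from light to middle (adjusted p = 0.0497). Galk1 changed by 2.64 from the light to the middle zone (adjusted p = 0.0012) and by 0.50 from the middle to the dense zone (adjusted p = 0.144), a rise that passed with the gradient as a block (adjusted p = 0.0143) and under quantile normalization (0.64, adjusted p = 0.0499). Gapdh gained 0.99 and then 1.54, both past the threshold. Its first step was not called without a light average (adjusted p = 0.0556 and 0.108), without the middle average of gradient 1 (adjusted p = 0.11) or with gradient 2 moved towards the top (adjusted p = 0.072), nor its second without either middle average (adjusted p = 0.0577 and 0.065). G6pc and H6pd had fallen by the middle zone, while G6pc3 changed by −0.85 up to there (adjusted p = 0.103, and 0.018 with the gradient as a block). From the middle zone to the dense, G6pc changed by −0.38 (adjusted p = 0.55), H6pd by 0.17 (adjusted p = 0.664) and G6pc3 by −0.18 (adjusted p = 0.761).

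A centre of sedimentation, the mean fraction number weighted by TPM, summarises each profile over all fractions. G6pc had the lightest centre of the 36 in both gradients, 7.74 and 10.2. The next were H6pd at 8.92 and 12.6, G6pc3 at 9.08 and 11.4, Ppp1r3b at 10.1 and 10.8 and Ppp1r3c at 12.0 and 12.9. The other cytosolic members lay between 12.7 (Galt) and 15.6 (Taldo1) in gradient 1 and between 14.3 (Gbe1) and 18.1 (Fbp1) in gradient 2, so none of the 30 overlapped with an ER member. The median of the 32 cytosolic members was 6.79 fractions denser than G6pc in gradient 1 and 6.11 in gradient 2, a mean of 6.45 ± 0.48 (SD, n = 2), given without a test. With log2(TPM + 1) in place of TPM as the weights it was 1.52. Gradient 2 was sampled to fraction 24, which raises its centres. Over the 17 fraction numbers that both gradients have, G6pc had centres of 7.74 and 8.95, H6pd of 8.92 and 10.4 and G6pc3 of 9.08 and 10.0, so the centres of these RNAs were still higher in gradient 2. Of the 11754 genes tested, 3.76% had a lighter centre than G6pc in gradient 1 and 16.6% in gradient 2. For G6pc3 the shares were 17.2% and 32.5%, and for H6pd 15.0% and 51.5%, so that over all fractions of gradient 2 H6pd (12.6) was no lighter than the median gene (12.5).

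**Figure D4:**
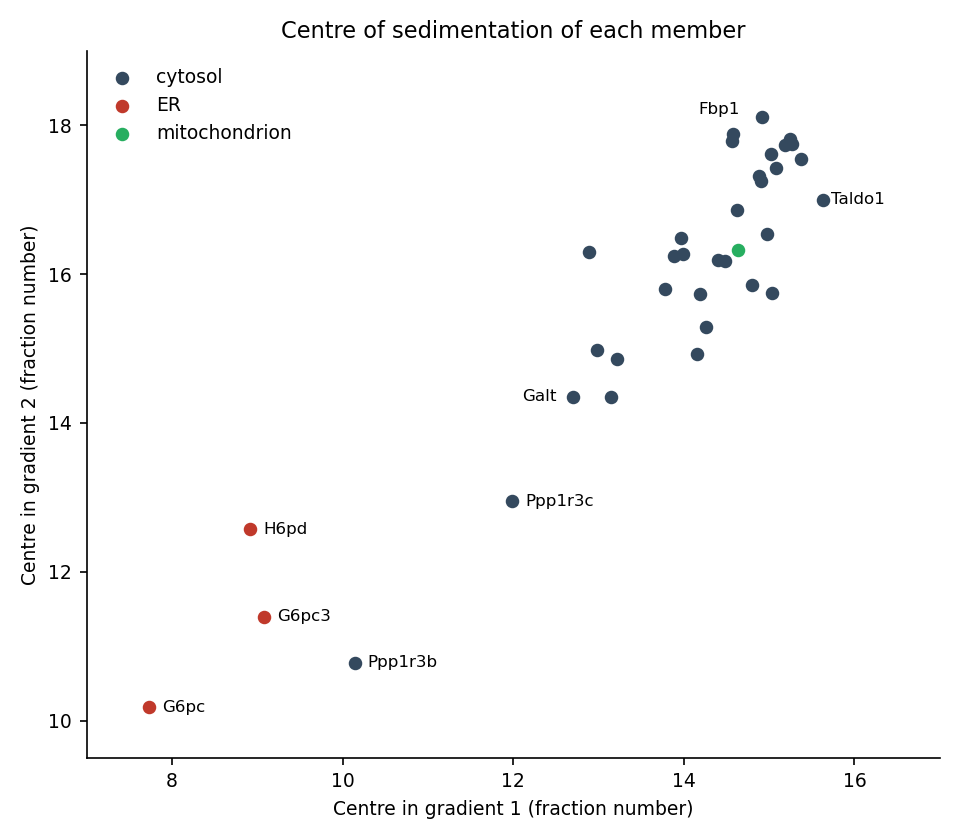
Centre of sedimentation of each RNA, the mean fraction number weighted by TPM, in gradient 1 (horizontal axis) and gradient 2 (vertical axis). Each point is 1 of the 36 RNAs, colored by where its protein works. The 3 ER members and Ppp1r3b sit apart at the lower left, with centres of 10.1 or less in gradient 1, and the mitochondrial Pck2 sits among the cytosolic members.

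As a description of likeness, Pearson's R with the profile of G6pc was computed over the fractions of each gradient, which come from a single homogenate and are not independent. Over the 17 fractions of gradient 1 and the 22 of gradient 2, R with G6pc was 0.939 and 0.785 for Ppp1r3b, 0.929 and 0.833 for H6pd, 0.534 and 0.742 for G6pc3 and 0.514 and 0.677 for Ppp1r3c. It was negative for each of the other 30 cytosolic members and for Pck2 in both gradients, from −0.214 (Tkt) to −0.921 (Phka2) among those 30 in gradient 1. Profiles repeated between the gradients, least so for G6pc3. Over the 17 shared fractions, R between the 2 gradients ran from 0.810 (Ppp1r3c) to 0.987 (Pfkl) for cytosolic members. It was 0.985 for G6pc, 0.957 for H6pd and 0.624 for G6pc3. Spearman's rho, which uses ranks, was 0.740, 0.885 and 0.392 for these 3 RNAs.

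Together the 32 cytosolic RNAs took a growing share of the RNA of a fraction. They held 0.593% of all TPM in the light zone, 1.19% in the middle zone and 2.66% in the dense zone of gradient 1, and 0.563%, 1.05% and 2.28% in gradient 2. Glycolysis was the largest group in fractions 16 to 19, with 1.52% and 1.07% of TPM, and the 2 cytosolic RNAs of gluconeogenesis, Pck1 and Fbp1, reached 0.668% and 0.798%. In fractions 22, 23 and 24 of gradient 2 these 2 RNAs held more than glycolysis, with 1.40% against 1.19% at fraction 24. The 3 ER members went the other way from the light to the dense zone, from 0.0269% to 0.00435% in gradient 1 and from 0.0164% to 0.00559% in gradient 2. Below the dense zone of gradient 2 their share was higher again, 0.00837% at fraction 20 and 0.0101% at fraction 24.

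Other genes of the pathway came from a list of 78. Of the 63 that could be tested between the dense and light zones, 28 rose and 13 fell, with a median change of 0.35, where 22.3% of all genes rose and 39.6% fell around a median of −0.43. Slc37a4, the transporter that carries glucose-6-phosphate into the ER for G6pc, fell by 1.57 (SE 0.40, adjusted p = 0.0168), from 48.0 to 10.9 TPM in gradient 1 and from 51.6 to 24.4 TPM in gradient 2, and was highest at fraction 5 in both. Slc2a2, the glucose transporter of the liver cell surface, fell by 2.43 (SE 0.57, adjusted p = 0.0121), from 115.4 to 11.3 TPM and from 132.4 to 36.5 TPM. Neither passed when the light average of gradient 1 (adjusted p = 0.0858 for Slc37a4 and 0.0678 for Slc2a2) or of gradient 2 (adjusted p = 0.0963 and 0.0809) was left out. Larger falls than that of Slc37a4 were also those of Slc2a9, also a transporter of the cell surface (−2.36, adjusted p = 0.00312), and Ppp1r3e, a further glycogen-targeting subunit of protein phosphatase 1 (−1.64, adjusted p = 0.00125). Ppp1r3e was at 5.41 and 0.672 TPM in the light and dense zones of gradient 1 and at 3.89 and 0.776 TPM in gradient 2. Of the other falls, named here after their values were seen, Gaa, the lysosomal enzyme that degrades glycogen, fell by 1.64 (adjusted p = 0.00548). Soluble cytosolic proteins fell as well, among them the kinases Gsk3b (−1.59, adjusted p = 0.00118) and Gsk3a (−1.52, adjusted p = 0.00203), Pgm2l1 (−1.23), Bpgm (−0.97) and Rpia (−0.70), so in this list falls were not limited to membrane proteins. The remaining falls were those of Minpp1 (−1.40), a phosphatase of the ER lumen, Slc2a1 (−1.296), a glucose transporter of the cell surface, and Adpgk (−0.99).

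Soluble enzymes were among the 28 that rose. Pcx, pyruvate carboxylase of the mitochondrial matrix, rose by 2.79 (SE 0.35, adjusted p = 0.00128), from 181.1 to 1273 TPM and from 129.1 to 768.3 TPM. The largest rises were those of Akr1b3, aldose reductase (3.77), Eno1b (3.24) and the mitochondrial malate dehydrogenase Mdh2 (3.24), each with an adjusted p of 0.000328 or less.

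Lists outside the pathway gave the range against which these changes can be read. Of 20 other cytosolic liver enzymes 19 rose and 1 fell between the light and dense zones, with a median of 2.25. Of 20 ER membrane proteins 2 rose and 12 fell, with a median of −1.89, and of 20 secreted proteins 1 rose and 15 fell, with a median of −1.77. G6pc (−2.48) and H6pd (−1.70) lay within the span of the ER membrane list, from −2.90 to 0.96. Markers of Kupffer, endothelial and stellate cells mostly moved in the direction of the ER members. Of 8 Kupffer cell markers 0 rose and 5 fell, and of 7 endothelial markers 0 rose and 6 fell. Of 6 stellate cell markers 0 rose and 5 fell. None of 4 cholangiocyte markers passed and 2 of 3 erythroid markers fell, where 39.6% of all genes fell. Under quantile normalization, where 30.5% of all genes rose and 29.8% fell, the falls numbered 3 for Kupffer cell, 4 for endothelial and 4 for stellate cell markers, where 1 rose, while 3 of 4 cholangiocyte markers rose and of the erythroid markers 1 rose and 1 fell. Summed, the 8 Kupffer cell markers went from 176.7 to 63.0 TPM in gradient 1 and from 173.6 to 82.7 TPM in gradient 2, the endothelial markers from 102.9 to 43.6 and from 69.5 to 36.3 TPM, and the 6 stellate cell markers from 92.2 to 32.5 and from 108.4 to 30.6 TPM. Most Kupffer, endothelial and stellate cell markers code for membrane or secreted proteins, so cell type and protein class were not separated here. Whether RNA of these cells had a part in the profiles of G6pc, G6pc3, H6pd and Ppp1r3b was not tested. The 10 hepatocyte markers, which hold secreted proteins and cytosolic enzymes, divided into 4 that rose and 4 that fell.

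The changes were also set beside features of the transcripts. ER enzymes were among the members so that they could be compared with cytosolic ones, so hydrophobic windows were not independent of the choice. Among the 36, 13 had at least 1 hydrophobic window, of which 10 rose and 3 fell, and 23 had none, of which 20 rose and 1 fell. Over all 10793 tested genes with a coding sequence, 13.1% of those with a window rose and 52.9% fell, against 28.3% and 30.6% of those without, and of the 1534 genes with 2 or more windows 7.69% rose and 63.9% fell. Of the 3 members with 2 or more windows, G6pc and G6pc3 fell, as did most genes with several windows, and Gpd1 rose. H6pd fell with 1 window and Ppp1r3b with none.

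Within the cytosolic members, RNAs with more noncoding sequence rose less. Spearman's rho between the noncoding length of the transcript and the dense-minus-light change was −0.589 over the 32, and −0.505 over 30 without Ppp1r3b and Ppp1r3c. Over the 10793 genes it was −0.339. This describes points that share the same libraries, and no p is given. Noncoding length ran from 218 bases in Taldo1, which had the largest rise, to 3534 in Ppp1r3b, which had the only called fall among the 32. Of the 4386 bases of the Ppp1r3b transcript 852 are coding, and of the 1229 bases of Taldo1 1011 are. For coding length rho was 0.228 over the 32 and 0.0816 over the 30.

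**Figure D5:**
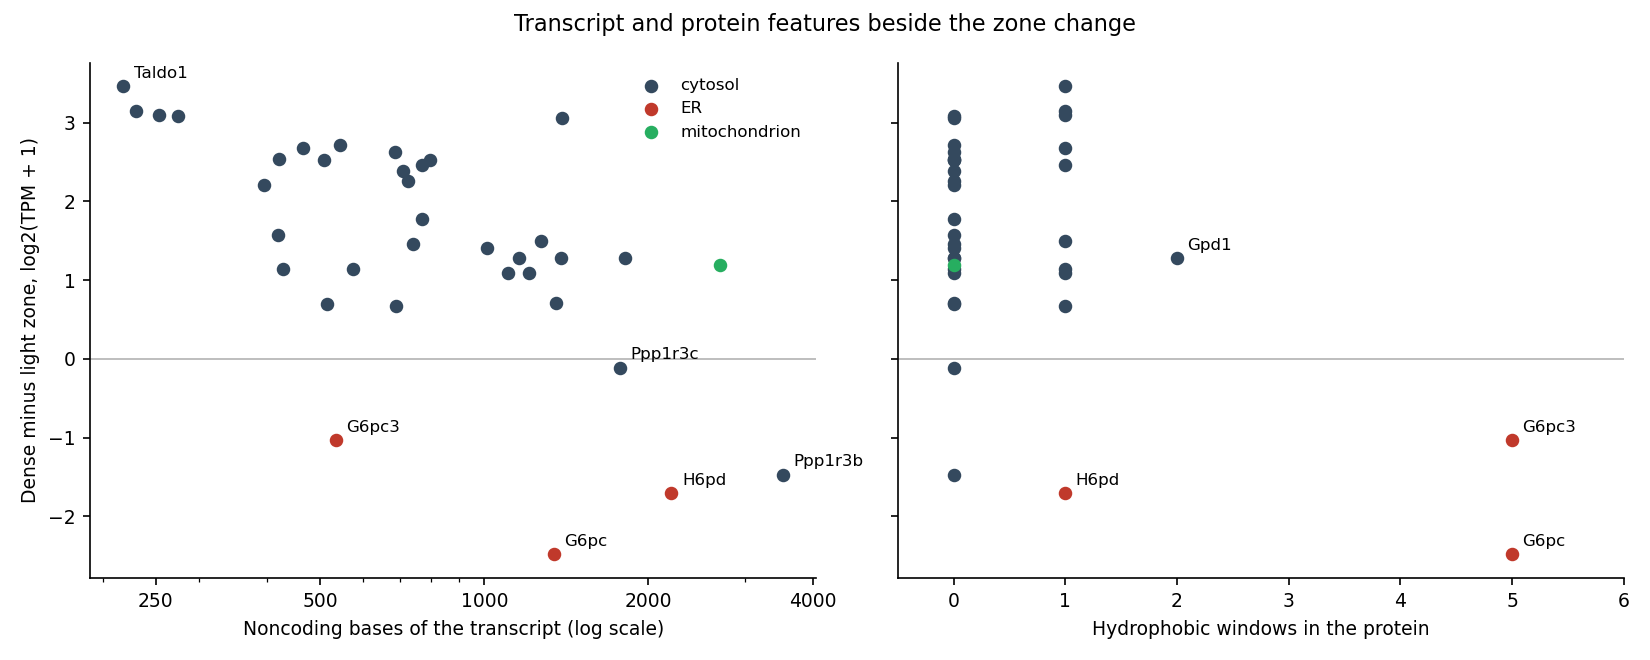
Dense zone minus light zone on the log2(TPM + 1) scale for the 36 RNAs, against the noncoding bases of the transcript on a log axis (left) and the number of hydrophobic windows in the encoded protein (right). Points are colored by where the protein works. Cytosolic members with few noncoding bases lie at the top left, Taldo1 first with 218, and Ppp1r3b with 3534 lies below 0, while G6pc and G6pc3 stand alone with 5 windows.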

How the data were processed

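RNA of 39 gradient fractions of mouse liver (17 of gradient 1, 22 of gradient 2) had been made into stranded libraries after ribosomal RNA removal. Per the labels, the authors demultiplexed reads with bcl2fastq 2.16.0.10, pseudo-aligned them with Kallisto (version not given in the sources used here) to RefSeq transcripts of mm10, and deposited TPM per gene symbol, with genes over 1 TPM in at least 1 fraction of a gradient. TPM holds no counts, so depth is unknown and no count model was used. All value columns matched a sample (0 did not).

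From these values, log2(TPM + 1) was averaged over fractions 4 to 7, 10 to 13 and 16 to 19 within each gradient. The 11754 genes whose mean over these 24 libraries reached 1 TPM were fitted with limma 3.58.1 (eBayes with trend) in R 4.3.3, with Benjamini-Hochberg adjustment and a threshold of 0.05. In simulated data of 11754 genes, 11554 were unchanged and errors were drawn independently for each zone average. Changes of 1, 2 and 3 between dense and light were recovered in 14.9%, 67.2% and 80.3% of changed genes. Of unchanged genes 0.043% were called. In the real data 22.3% of genes rose, 39.6% fell and deviations correlated between zones, so these rates may not hold there. Differences from G6pc and Pck1 were fitted after subtracting that gene. A fold on the log2(TPM + 1) scale understates changes of low genes.

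Each homogenate gave all 3 zones of its gradient, so gradient numbers pair the zones. Deviations of the 2 gradients correlated across genes between zones (r = 0.665, 0.540 and 0.798).

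Coding sequences and exons came from GENCODE M21 (1 transcript a gene, APPRIS principal where marked, then the longest coding sequence), gene positions from RefSeq (GRCm38.p6), and hydropathy was scored over 19 codons with a threshold of 1.6. Alternatives were the pseudocount (0.1), filters (none, 10 TPM), quantile normalization, rescaling without the 50 most abundant genes, other zone borders, a shift of gradient 2, the gradient as a block, and leaving out each zone average. The members and gene lists were chosen with earlier results of these data known. Every member is named. Values in both gradients are given for those outside the cytosol, for 7 chosen enzymes, and for the 5 largest rises and falls; of the other pathway genes, chosen ones and the 3 largest called changes in each direction are named, and some chosen ones are not reported here. Python 3.11.15, NumPy 2.4.6, pandas 2.3.3 and Matplotlib 3.10.9 were used.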

Additional observations from a re-analysis of the deposited data

How the results depend on the processing

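The count of RNAs called between the dense and light zones, 34, was between 24 and 35 under every alternative run, and leaving out a zone average gave 24 to 33. Between the middle and light zones it was 20, and 13 to 22 when zone averages were left out. Between the dense and middle zones it was 16, with 9 when gradient 2 was moved 1 fraction towards the bottom, 29 with the gradient as a block, and 0 to 13 when a zone average was left out. A lone average is then assumed to vary like the other zones, and the difference in level between the gradients enters the change. Of 569 values of single RNAs between the dense and light zones, 527 kept direction and side of the threshold, 35 lost the call, 4 gained it and 3 changed sign. The members differing from G6pc numbered 33, with 0 without moderation and with the gradient as a block. Those differing from Pck1 numbered 8, with 13 under quantile normalization, 23 with the gradient as a block, 2 without moderation, 20 with the block and no moderation, 18 without the light average of gradient 2, and 4 or 5 without any other zone average. That fit had no value after rescaling, which leaves out Pck1. The centre difference of 6.45 fell to 1.52 with log2(TPM + 1) as weights, which flatten each profile. The cause of the other changes was not tested.

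Changes of single RNAs that turned sign were all of RNAs not called in either setting. Ppp1r3c, −0.11 between dense and light, was 0.0054 with wider zones and −0.48 to 0.26 without a zone average. Between middle and light, quantile normalization gave −0.26 for Gpi1 and −0.13 for Gpd1, narrower zones gave −0.20 and rescaling −0.021 for Gpi1, and Pgk1 was 0.0665 with wider zones and 0.0605 with gradient 2 moved towards the bottom. Leaving out zone averages gave −0.26 to 0.11 for Khk, −0.080 to 0.22 for Gpi1, −0.15 to 0.086 for Pgk1, −0.82 to 0.021 for Ppp1r3c and −0.25 to 0.025 for Tkt. Between dense and middle, Galt was 0.24 with quantile normalization, 0.0625 with rescaling, 0.010 with narrower zones and 0.018 with gradient 2 moved towards the bottom, and quantile normalization gave 0.17 for G6pc3 and 0.011 for Gbe1. Leaving out zone averages gave −0.67 to 0.31 for G6pc3, −0.13 to 0.71 for Ppp1r3c, −0.026 to 0.21 for Phka2 and −0.085 to 0.42 for H6pd.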
